A study of Mus musculus with 6 samples.

Results

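Cells use 3 nuclear RNA polymerases. RNA polymerase I (Pol I) makes the precursor of the large ribosomal RNAs, RNA polymerase II (Pol II) makes messenger RNAs, and RNA polymerase III (Pol III) makes transfer RNAs, 5S ribosomal RNA and other small RNAs. The enzymes are built from subunits of their own around a core that is partly common, so that some subunits sit in all of them and others in Pol I and Pol III only. Pol I is brought to ribosomal DNA by UBF and the SL1 complex, and Pol III is brought to its genes by TFIIIB and TFIIIC and is held back by the repressor Maf1.

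The genes for this machinery were examined in the immortalized mouse fibroblast line NIH/3T3, 48 h after transfection with siRNAs. One group received a pool of siRNAs against Aldoa (siAldoa), which encodes a glycolytic enzyme, and the other a non-targeting pool (siCtrl), with 3 libraries in each. All 6 libraries came from the same line and hold poly(A) RNA, so the products of Pol I, and those of Pol III without a poly(A) tail, were not measured. The members were all genes of the table whose symbol begins with Polr1, Polr2 or Polr3, together with Ubtf, Rrn3, Taf1a to Taf1d, Ttf1, Brf1, Brf2, Bdp1, Gtf3c1 to Gtf3c5 and Maf1, and this gave 44 of 18001 genes. They comprise 28 subunits and 16 initiation, termination or repressor factors. Of the subunits, 5 are shared by all 3 polymerases, 2 by Pol I and Pol III, and 3, 8 and 10 belong to Pol I, Pol II and Pol III. The factors comprise 7 for Pol I and 9 for Pol III.

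Levels are CPM, the reads of a gene relative to the effective size of its library. The libraries held 3692341 to 3771129 reads, at which 3 reads correspond to 0.786 to 0.822 CPM. Within each group, replicates 1 and 2 were close to each other (chi-square per degree of freedom 1.12 in siCtrl and 1.11 in siAldoa, beyond sampling noise in both), and replicate 3 stood apart from them (2.07 to 3.24). Whether replicates 1 and 2 came from separate cultures is not given beyond the paper's term biological replicates, and if they did not, the standard errors and p-values below are in part technical and too small. Aldoa was at 522, 536 and 545 CPM in siCtrl and at 62.9, 69.2 and 72.0 CPM in siAldoa, a log2 fold change of -2.96 (p = 0.1 in a two-sided exact permutation test, which cannot go lower with 3 against 3 libraries). All 8 fibroblast markers were present, with a summed level of 12801 to 13329 CPM in siCtrl and 10574 to 11253 CPM in siAldoa (3 lower and 4 higher at an adjusted p under 0.05). Markers of other cells summed to 19.4 to 26.0 and 26.4 to 28.8 CPM for macrophages (7 of 7 in the table). Of these 7, only Cd14 was higher at that adjusted p, with means of 12.4 and 19.2 CPM, and 0 were lower. Their median log2 fold change was -0.08. The sums were 6.85 to 11.2 and 1.83 to 4.28 CPM for epithelium (4 of 5, Cdh1 and Krt8 lower). For endothelium they were 7.40 to 8.47 and 3.47 to 7.56 CPM (3 of 4, 0 lower and 0 higher). The part of these markers in the results was not tested.

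Groups were compared with limma on log2(CPM + 1), and every log2 fold change below is siAldoa minus siCtrl on that scale, on which changes of genes with few reads come out too small, with its standard error (SE) from limma. A gene is said to have fallen or risen when its p-value, adjusted by the Benjamini-Hochberg method over all 18001 genes, was under 0.05. Of the 44 members, 10 fell (22.7%) and 2 rose (4.55%), while 10.0% of all genes fell and 10.4% rose. The 10425 genes in the same range of mean CPM as the members (5.94 to 240.1 CPM) fell in 13.4% and rose in 14.6% of cases. Those that fell included Polr3g, Polr2m, Ubtf, Taf1d, Polr2d, Polr1b, Polr2e, Polr2f and Polr1d, and those that rose were Maf1 and Polr1c. In bulk RNA, fewer cells that express a gene and less RNA of that gene per cell cannot be told apart.

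The median log2 fold change over the 44 members was -0.0017, beside -0.0023 over all genes, and 22 members lay on each side of 0. Gtf3c2, with 1 to 3 reads in each library, is counted among those above 0. The siAldoa libraries were all below the siCtrl libraries for 13 members and all above them for 3, against 17.1% and 16.7% of all genes and 20.8% and 21.9% of genes in the same CPM range. Among the 28 subunits, 8 fell (28.6%) and 1 rose (3.57%), with a median of -0.11. Among the 16 factors, 2 fell (12.5%) and 1 rose (6.25%), with a median of 0.06. Of genes in the same CPM range 13.4% fell and 14.6% rose, so the share of factors that fell was near that of such genes. The smaller classes below hold few genes, and their counts are to be read beside the same shares. No test of the difference between these classes was made.

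**Figure D1:**
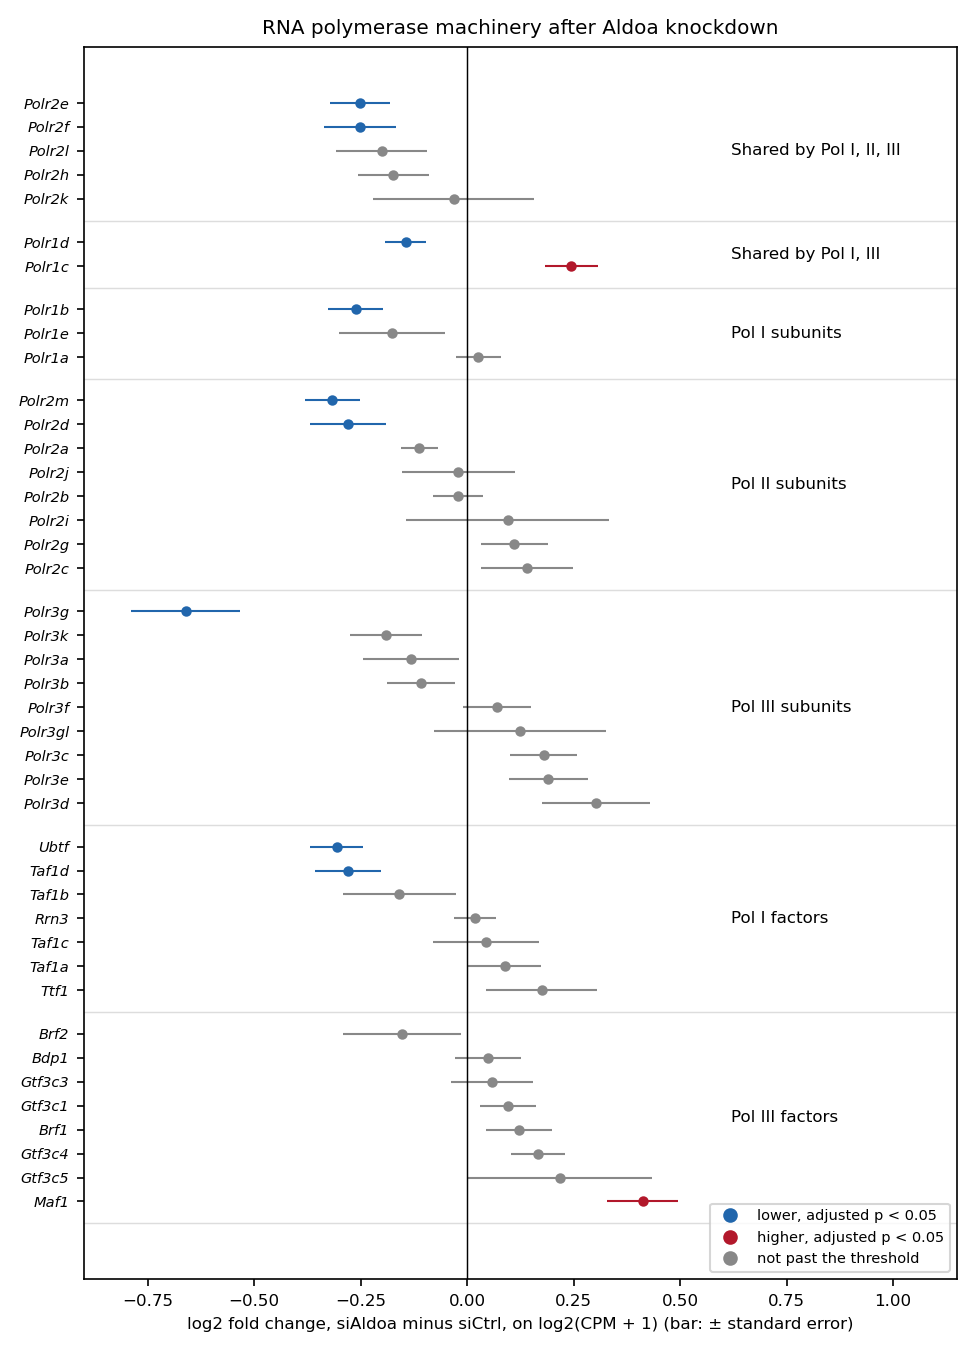
Log2 fold change (siAldoa minus siCtrl, on log2(CPM + 1), bar ± standard error, n = 3 libraries per group) of 42 members with at least 12 reads, by class. All 5 subunits shared by the 3 polymerases lie below 0, and of the Pol III factors shown only Brf2 does.

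The count of 12 depends on the fit. The quasi-likelihood test of edgeR, run on recovered reads, also gave 10 lower and 2 higher members, whereas DESeq2 gave 6 and 1, without Polr1c, Polr1d, Polr2d, Polr2e and Polr2f. Without a mean-variance trend, 1 fell and 0 rose (9 and 3 at an unadjusted p under 0.05). With 2 libraries per group the counts were 1 and 1 without replicate 1, 3 and 0 without replicate 2, and 0 and 0 without replicate 3 (8 and 4 at an unadjusted p under 0.05 in limma). None of the 12 changed direction in any of the 18 alternatives. With each single library left out in turn, 7 of them stayed past the threshold, among them Polr3g, Polr2m, Ubtf, Polr1b, Maf1 and Polr1c.

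**Figure D2:**
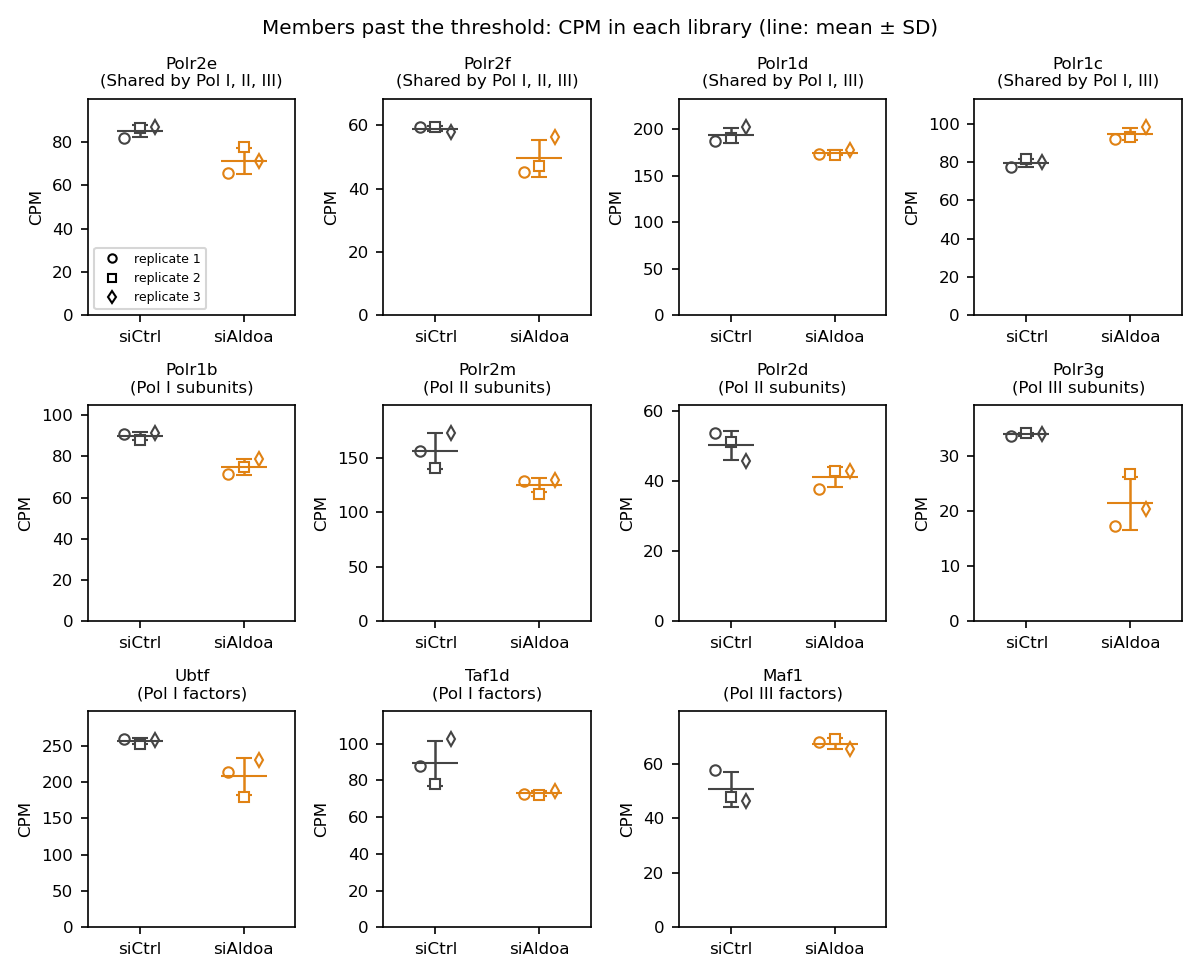
CPM in each library of 11 members past the threshold, with the replicate number as the symbol and the group mean ± SD (n = 3) as the line and bar; each axis starts at 0. In every panel the siAldoa and siCtrl libraries do not overlap, and Maf1 and Polr1c are the panels in which siAldoa is higher.

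The 5 subunits common to Pol I, Pol II and Pol III are encoded by Polr2e, Polr2f, Polr2h, Polr2k and Polr2l. Their summed level was 233, 243 and 249.8 CPM in siCtrl and 190.0, 216 and 218 CPM in siAldoa, or 85.9% of the control mean. Of these, 2 fell and all 5 had a log2 fold change below 0, with a median of -0.20, or -0.13 without siAldoa replicate 1. Polr2e (chromosome 10, 80035949 to 80039795, minus strand, GRCm38) was at 81.9, 86.4 and 86.8 CPM in siCtrl and at 65.6, 77.5 and 71.0 CPM in siAldoa, so that each siAldoa library was below each siCtrl library. Its mean went from 85.0 ± 2.73 to 71.3 ± 5.97 CPM (SD, n = 3), a log2 fold change of -0.25 (SE 0.070, adjusted p = 0.012). Polr2f (chromosome 15, 79141009 to 79151774, plus strand) was at 59.4, 59.4 and 57.9 CPM in siCtrl and at 45.3, 47.0 and 56.3 CPM in siAldoa, with siAldoa replicate 3 close to the controls. The log2 fold change of Polr2f was -0.25 as well (SE 0.084, adjusted p = 0.036).
Polr2h, whose siAldoa libraries at 40.2, 43.3 and 45.6 CPM all lay below the siCtrl libraries at 47.1, 49.8 and 48.9 CPM, did not pass the threshold (log2 fold change -0.17, adjusted p = 0.16). Polr2l was at 36.4, 38.6 and 43.4 CPM in siCtrl and at 29.1, 38.5 and 35.3 CPM in siAldoa, with overlapping groups (-0.20, adjusted p = 0.21). Reads of Polr2l could be split with Usp50 (99.7% identical over 382 bases) and Gm13015 (97.1% over 204 bases). Those of Polr2f could be split with Kdelc2 (90.5% over 210 bases) and Slc35e2 (90.9% over 208 bases). Polr2k had few reads, 30 to 48 in a library, and a log2 fold change of -0.03 (adjusted p = 0.94). The calls of both genes that fell rest on most of the libraries. Polr2e had an adjusted p of 0.056 to 0.089 without siCtrl replicate 2, siCtrl replicate 3, siAldoa replicate 1 or siAldoa replicate 3. For Polr2f the adjusted p was 0.095 to 0.19 without any library other than siAldoa replicate 3, and 0.010 without that one.

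**Figure D3:**
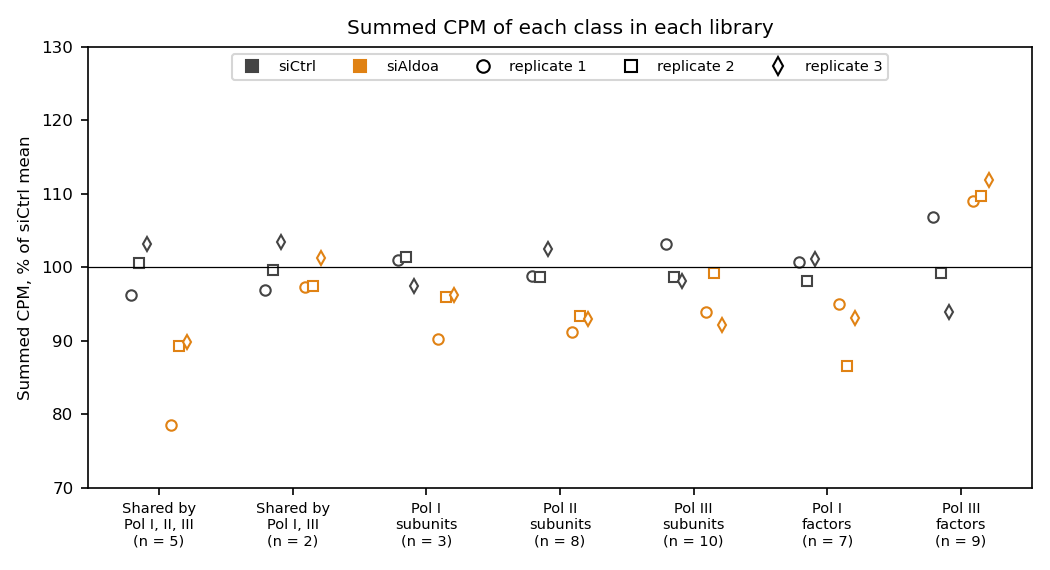
Summed CPM of each class of genes in each library, as a percentage of the siCtrl mean (the axis does not start at 0); n is the number of genes and the symbol is the replicate number. For the subunits shared by all polymerases every siAldoa library lies below every siCtrl library. The same holds for the Pol I subunits, the Pol II subunits and the Pol I factors. A sum is weighted towards genes of high CPM and does not show that all genes of a class went the same way. In these 3 classes, 1 of 3, 3 of 8 and 4 of 7 genes had a log2 fold change above 0. For the Pol III factors every siAldoa library lies above.

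Polr1c and Polr1d encode the pair of assembly subunits that Pol I and Pol III have in common, and they went in opposite directions. Polr1c (chromosome 17, 46243920 to 46248054, minus strand) was at 77.2, 81.5 and 80.2 CPM in siCtrl and at 92.0, 93.3 and 98.2 CPM in siAldoa. It rose from 79.6 ± 2.19 to 94.5 ± 3.26 CPM (SD, n = 3), a log2 fold change of 0.24 (SE 0.062, adjusted p = 0.0062), and was the only subunit of the 28 that rose. Polr1d (chromosome 5, 147077050 to 147111597, plus strand) was at 187, 190.4 and 202 CPM in siCtrl and at 174, 173 and 178 CPM in siAldoa. The groups did not overlap, and the log2 fold change was -0.14 (SE 0.048, adjusted p = 0.036), the smallest among the members that passed the threshold. Its adjusted p was 0.059 to 0.16 without siCtrl replicate 2, siCtrl replicate 3 or any of the siAldoa libraries, and 0.17 after quantile normalization. Reads of Polr1d could also be split with Gm12751, which is identical to it over 381 bases, and Gm12751 had a log2 fold change of 0.12 (adjusted p = 0.53).

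Of the subunits found in Pol I alone, the table holds the largest (Polr1a), the second largest (Polr1b) and Polr1e under the Polr1 name. Polr1b (chromosome 2, 129100995 to 129126594, plus strand) was at 90.7, 87.8 and 91.3 CPM in siCtrl and at 71.2, 74.8 and 78.6 CPM in siAldoa. The groups were well apart, with means of 89.9 ± 1.85 and 74.9 ± 3.65 CPM (SD, n = 3), and Polr1b fell with a log2 fold change of -0.26 (SE 0.064, adjusted p = 0.0046). Polr1a, its partner in the active centre, had means of 145 and 147 CPM and a log2 fold change of 0.03 (adjusted p = 0.80). Polr1e had a log2 fold change of -0.18 with overlapping groups (adjusted p = 0.37). Other Pol I subunits stand in the table under older symbols, and both Cd3eap (log2 fold change -0.39, adjusted p = 0.0031) and Twistnb (-0.30, adjusted p = 0.0070) fell. Znrd1 had a log2 fold change of -0.02 (adjusted p = 0.93).

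Among the 7 Pol I factors, 2 fell and 0 rose (2 and 0 at an unadjusted p under 0.05 in limma as well). Ubtf (chromosome 11, 102304560 to 102319742, minus strand) encodes UBF, which binds along active ribosomal DNA, and was at 259, 252 and 258 CPM in siCtrl. In siAldoa it was at 214, 180.1 and 230.2 CPM, all below the controls but more widely spread. Ubtf fell from 256 ± 3.91 to 208 ± 25.6 CPM (SD, n = 3), a log2 fold change of -0.31 (SE 0.062, adjusted p = 0.00073). Taf1d (chromosome 9, 15306214 to 15316991, plus strand), a subunit of SL1, was at 87.6, 78.0 and 102 CPM in siCtrl and at 72.3, 72.2 and 74.4 CPM in siAldoa. Here the spread lay in the controls, and the log2 fold change was -0.28 (SE 0.078, adjusted p = 0.012). The adjusted p of Taf1d was 0.059 to 0.13 without any library other than siCtrl replicate 2, and 0.0050 without that one. The exons of Taf1d also hold snoRNAs and stretches at least 90% identical to other transcripts over 200 bases or more, so its reads are uncertain.
The other SL1 subunits did not pass the threshold, with log2 fold changes of -0.16 for Taf1b, 0.09 for Taf1a and 0.04 for Taf1c (adjusted p from 0.46 to 0.86). Reads of Taf1b could be split with another gene, 91.9% identical over 383 bases. Rrn3, which links Pol I to the initiation complex, was at 238 CPM in siCtrl and 241 CPM in siAldoa (log2 fold change 0.02, adjusted p = 0.86). The termination factor Ttf1 had a log2 fold change of 0.17 (adjusted p = 0.40). Summed over the 7 Pol I factors, the siAldoa libraries held 91.6% of the control mean, and the median log2 fold change was 0.02.

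Among the 8 genes for Pol II subunits, 2 fell and 0 rose, with a median log2 fold change of -0.02 and a summed level of 92.5% of the control. At an unadjusted p under 0.05 the counts were 3 and 0 in limma. Polr2m (chromosome 9, 71478437 to 71485935, minus strand) encodes a substoichiometric subunit that blocks the binding of TFIIF to Pol II. It was at 156, 140.3 and 173 CPM in siCtrl and at 128, 117 and 129 CPM in siAldoa. Polr2m fell from 156 ± 16.2 to 125 ± 6.70 CPM (SD, n = 3), a log2 fold change of -0.32 (SE 0.065, adjusted p = 0.00089). Polr2d (chromosome 18, 31789159 to 31796701, plus strand), a subunit of the stalk of Pol II, was at 53.7, 51.2 and 45.8 CPM in siCtrl and at 37.8, 42.8 and 42.9 CPM in siAldoa. The nearest libraries of the groups differed by little, and the log2 fold change was -0.28 (SE 0.089, adjusted p = 0.026). Its adjusted p was 0.055 to 0.14 without any library other than siCtrl replicate 3, and 0.024 without that one. Polr2g, the other stalk subunit, had a log2 fold change of 0.11 (adjusted p = 0.38).
The catalytic subunit Polr2a was at 247, 252 and 249 CPM in siCtrl and at 236, 235 and 222 CPM in siAldoa. The groups did not overlap, but its log2 fold change of -0.11 missed the threshold (SE 0.044, adjusted p = 0.077). Polr2b, the second largest subunit, had a log2 fold change of -0.02 (adjusted p = 0.86). A short stretch of its exons (1.8% of bases) overlaps Igfbp7 on the other strand, a gene that rose (1.82). Larger overlaps with genes on the other strand included those of Polr2i (26.8%), Polr2c (18.1%), Taf1c (16.7%), Polr2j (15.9%) and Polr2f (9.4%). The use of strand in counting is not given. The assembly subunit Polr2c was at 24.9, 24.6 and 26.7 CPM in siCtrl and at 27.3, 29.9 and 27.2 CPM in siAldoa, higher in each siAldoa library without passing the threshold (0.14, adjusted p = 0.42). Its partner Polr2j had a log2 fold change of -0.02 (adjusted p = 0.94) and Polr2i one of 0.10 (adjusted p = 0.84) on 16 to 34 reads a library. Reads of Polr2c could be split with Gm11993, 97.7% identical over 830 bases.

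The largest decrease of all members was that of Polr3g, a subunit of Pol III alone. Polr3g (chromosome 13, 81673843 to 81711013, minus strand) belongs to the trimer that Pol III uses for initiation and is known for high levels in stem cells and tumour cells. It was at 33.7, 34.2 and 34.1 CPM in siCtrl and at 17.3, 26.7 and 20.4 CPM in siAldoa. The controls lay within 1 CPM of each other and well above all siAldoa libraries, among which replicate 2 was the highest. Polr3g fell from 34.0 ± 0.274 to 21.5 ± 4.81 CPM (SD, n = 3), or to 63.1% of the control, with a log2 fold change of -0.66 (SE 0.13, adjusted p = 0.00052).
Polr3gl is the paralog of Polr3g that takes its place in the other form of Pol III. It was at 6.85, 7.39 and 9.52 CPM in siCtrl and at 9.18, 9.89 and 7.07 CPM in siAldoa, with overlapping groups and 25 to 37 reads a library (log2 fold change 0.12, adjusted p = 0.74). Per kilobase of exon, Polr3g stood at 2.00, 1.88 and 1.45 times the level of Polr3gl in siCtrl and at 0.764, 1.10 and 1.17 times in siAldoa. The ratio was thus lower in each siAldoa library than in each siCtrl library, and it was above 1 in all but siAldoa replicate 1.
The Pol III subunits that follow did not pass the threshold. Polr3k, which serves in cleavage of the transcript, was lower in every siAldoa library (-0.19, adjusted p = 0.13). The largest subunits had log2 fold changes of -0.13 (Polr3a, adjusted p = 0.47) and -0.11 (Polr3b, adjusted p = 0.39). The other members of the initiation trimer had 0.18 (Polr3c, adjusted p = 0.12) and 0.07 (Polr3f, adjusted p = 0.61). The pair of subunits Polr3d and Polr3e had 0.30 (adjusted p = 0.099) and 0.19 (adjusted p = 0.17). Over the 10 Pol III subunits the median was -0.02 and the summed level 95.1% of the control.

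Maf1 (chromosome 15, 76351294 to 76354380, plus strand), the repressor of Pol III that acts when nutrients are scarce or growth signals stop, rose. It was at 57.8, 47.6 and 46.3 CPM in siCtrl and at 67.7, 69.0 and 65.2 CPM in siAldoa, with siCtrl replicate 1 the nearest of the controls. The mean went from 50.6 ± 6.29 to 67.3 ± 1.92 CPM (SD, n = 3), or 133% of the control, a log2 fold change of 0.41 (SE 0.083, adjusted p = 0.00078). In DESeq2 the adjusted p was 0.0058. Maf1 did not pass the threshold in limma without a mean-variance trend, without replicate 2 or without replicate 3 (adjusted p up to 0.13).
The 8 other Pol III factors did not pass the threshold in either direction (limma, 0 at an unadjusted p under 0.05 in the lower and 1 in the higher direction beside Maf1). Brf1 of TFIIIB was at 55.6, 53.3 and 48.9 CPM in siCtrl and at 56.4, 55.3 and 60.2 CPM in siAldoa (log2 fold change 0.12, adjusted p = 0.32). Its paralog Brf2, which serves the promoters of the U6 type, was at 19.4, 19.7 and 21.7 CPM in siCtrl and at 19.7, 15.0 and 20.2 CPM in siAldoa (-0.15, adjusted p = 0.51). Both pairs of groups overlapped, and per kilobase Brf1 stood at 1.18, 1.12 and 0.930 times the level of Brf2 in siCtrl and at 1.18, 1.52 and 1.23 times in siAldoa.
Bdp1, the third part of TFIIIB, had a log2 fold change of 0.05 (adjusted p = 0.73). Of the TFIIIC genes, Gtf3c4 had 0.17 (adjusted p = 0.068), Gtf3c1 0.10, Gtf3c3 0.06 and Gtf3c5 0.22 (adjusted p from 0.36 to 0.75). Gtf3c4 was past the threshold without siCtrl replicate 1 (adjusted p = 0.011) and without genes of low CPM (adjusted p = 0.041). Gtf3c2 had 1 to 3 reads in each library, at or under the limit of 3 reads, and 38.9% of its exon bases coincide with Gm29609 on the same strand, so no fold is given. The median of the 9, Gtf3c2 included, was 0.10 (0.14 without siCtrl replicate 1). It was 0.11 without genes of low CPM, which left Gtf3c2 out. With Gtf3c2 counted, 8 of 9 were above 0. The summed level of the 9 was 455, 423 and 401 CPM in siCtrl and 465, 467 and 477 CPM in siAldoa.

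Levels per kilobase of exon varied among the members by more than the knockdown moved any of them. In siCtrl the highest were Polr2m (64.5 CPM per kb), Polr1d (63.5), Rrn3 (55.1), Polr2d (49.5) and Polr2g (49.0). The lowest were Gtf3c2 (0.069 CPM per kb), Gtf3c5 (1.19), Ttf1 (3.22), Polr2i (4.77), Polr2c (4.84) and Polr3gl (4.96). Polr2m and Polr1d overlapped in their libraries, as did Polr2d and Polr2g. Subunits that occur once in the same enzyme did not have the same measured level, as Polr2a had 35.3 CPM per kb, Polr2b 30.1 and Polr2c 4.84. These values divide by the union of annotated exons, so a gene with long exons that the cells do not use comes out too low. Polr2c, with 5.26 kb of exon, could also lose reads to Gm11993, which was at 19.1 CPM in siCtrl. Reads of Ttf1 could be split with Gm14132, 93.6% identical over 1736 bases.

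**Figure D4:**
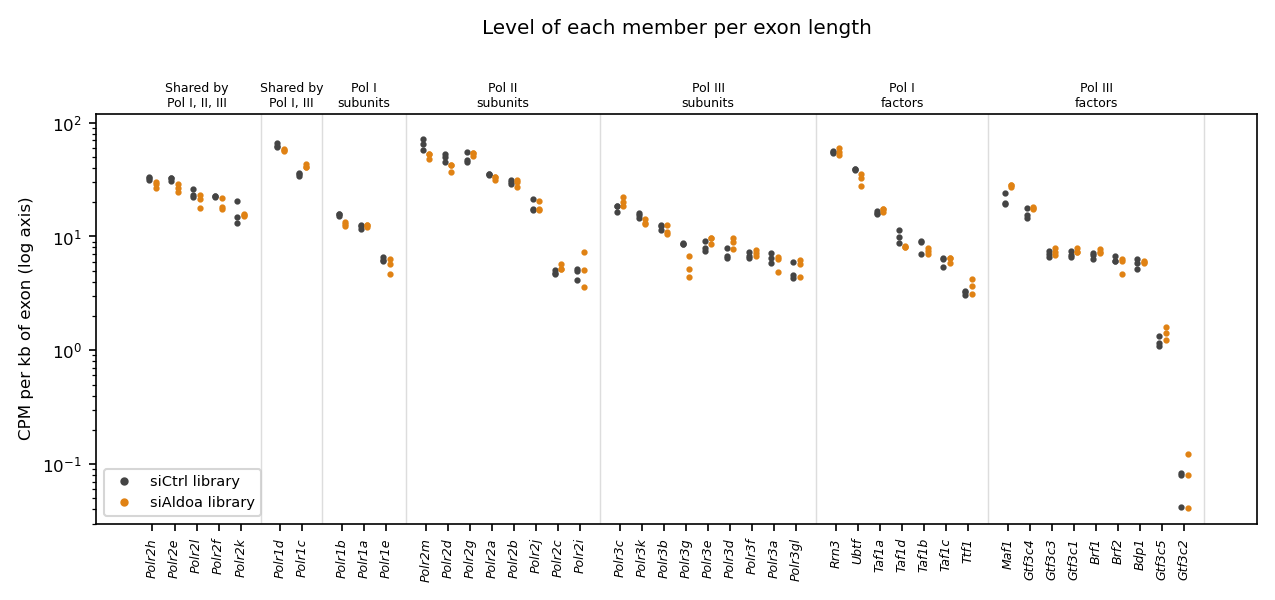
CPM per kilobase of exon (log axis) of 43 members in each library, grouped by class and ordered by the siCtrl mean. The highest, Polr2m, had a siCtrl mean of 64.5 CPM per kb and the lowest, Gtf3c2, 0.069 CPM per kb.

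The upstream sequences of the members were searched for common promoter motifs. RefSeq transcription starts (GRCm38.p6) were available for 35 of the 44 members, and the 250 bases upstream of each were searched on both strands for the E-box CACGTG, which Myc binds, the ETS motif CCGGAAG, the NRF1 motif GCATGCGC and the GC-box GGGCGG. The ETS motif was in 11 of the 35 members (31.4%), against 7.83% of all 27025 genes with an entry. A GC-box was in 19 (54.3% against 35.4%), an E-box in 3 (8.57% against 6.86%) and an NRF1 motif in 3 (8.57% against 2.56%). The 27025 genes were not limited to the 18001 genes measured here, nor matched to the members in CPM. These shares therefore cannot tell whether a motif is particular to this machinery or common among expressed genes. Among the 9 members past the threshold that have an entry, 7 held a GC-box, 3 the ETS motif and 0 an E-box or NRF1 motif. Polr1c, which rose, is among the 9 and held both a GC-box and the ETS motif. A gene was counted when any of its starts held the motif, and Ubtf had several starts. Whether these shares differ from those of the members not past the threshold was not tested. The E-boxes were upstream of Polr3c, Polr3gl and Rrn3, none of which passed the threshold. Myc itself was at 168, 165 and 177 CPM in siCtrl and at 138, 130.4 and 148 CPM in siAldoa, and it fell (log2 fold change -0.29, adjusted p = 0.00040). Whether Myc has a part in the change of any member was not tested.
Upstream sequences of members that fell are shown for Pol III (Polr3g, chr13:81711014-81711263, minus strand), Pol I (Polr1b, chr2:129100746-129100994, plus strand) and the shared subunits (Polr2e, chr10:80039796-80039909, minus strand). Each is given 5′ to 3′ on the strand of its gene, as far as it lies outside annotated exons, and capitals mark the motifs on either strand.
Polr3g: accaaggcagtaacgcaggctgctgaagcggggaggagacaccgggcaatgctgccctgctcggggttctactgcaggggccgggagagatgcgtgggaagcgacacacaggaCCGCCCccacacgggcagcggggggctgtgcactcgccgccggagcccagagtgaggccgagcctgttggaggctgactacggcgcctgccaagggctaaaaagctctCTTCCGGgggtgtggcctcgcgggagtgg
Polr1b: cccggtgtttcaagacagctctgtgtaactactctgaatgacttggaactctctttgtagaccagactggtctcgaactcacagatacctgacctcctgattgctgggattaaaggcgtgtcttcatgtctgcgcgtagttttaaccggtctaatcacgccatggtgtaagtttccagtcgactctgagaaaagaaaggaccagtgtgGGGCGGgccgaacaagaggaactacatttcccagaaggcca
Polr2e: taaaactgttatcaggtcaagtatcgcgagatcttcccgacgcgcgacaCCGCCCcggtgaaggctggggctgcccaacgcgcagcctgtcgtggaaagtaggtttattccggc
The Polr3g stretch holds a GC-box as CCGCCC and, nearer to the start, the ETS motif as CTTCCGG. Polr1b holds 1 GC-box on the strand of the gene. In Polr2e 1 of the 3 GC-boxes of the searched window lies in the stretch shown. A match is a description of the letters and does not show binding.

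Genes that work with the polymerases were counted in the same way. Of 13 other Pol I and Pol III genes (14 listed), Cd3eap and Twistnb fell and Snapc1, a subunit of the complex that recruits polymerases to small nuclear RNA genes, rose (log2 fold change 0.61, adjusted p = 0.00069), with a median of -0.07. Snapc1 was at 17.3, 15.9 and 15.6 CPM in siCtrl and at 25.4, 25.1 and 25.7 CPM in siAldoa. The general factors of Pol II (28 in the table of 30) had 4 that fell and 0 that rose, with a median of -0.03. The lowest were Gtf2a1 of TFIIA (-0.52), Taf10 (-0.35) and Taf12 (-0.35), both of TFIID.
Of 15 genes for the assembly and nuclear import of polymerases, 3 fell and 0 rose, namely the prefoldin-like Uri1 (-0.51), the ATPase Ruvbl2 (-0.23) and the prefoldin Pfdn2 (-0.23). The median was -0.13, and in 8 of the 15 every siAldoa library was below every siCtrl library. Of genes in the CPM range of the members, 13.4% fell and 20.8% had siAldoa libraries that were all lower. Uri1 was at 83.5, 82.1 and 81.8 CPM in siCtrl and at 57.5, 54.5 and 60.7 CPM in siAldoa. Of 19 genes for elongation by Pol II, 5 fell and 1 rose, with a median of -0.10. The lowest were Supt16 (-0.41) of the histone chaperone FACT, Ell (-0.28) and Cdk9 (-0.27), the kinase of P-TEFb, while Ccnt1 (0.32), the cyclin that pairs with Cdk9, rose.
Mitochondria have a polymerase of their own, which is not related to the nuclear ones. Its gene Polrmt rose from 34.0, 36.9 and 33.6 CPM in siCtrl to 54.5, 43.3 and 52.4 CPM in siAldoa (log2 fold change 0.51, adjusted p = 0.00038), while its factor Tfam fell (-0.28, adjusted p = 0.0073). The other 4 genes of that list did not pass the threshold, and the median of the 6 was -0.02.

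**Figure D5:**
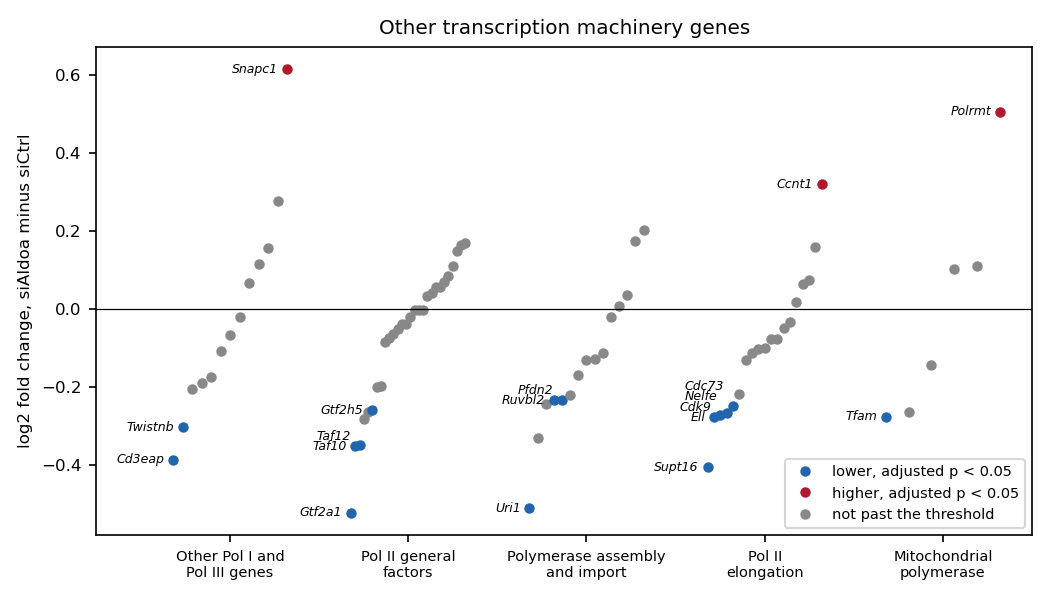
Log2 fold change (siAldoa minus siCtrl, on log2(CPM + 1)) of each gene in the 5 lists of other transcription genes, ordered within each list; genes past the threshold are coloured and named. In the lists for general factors and for assembly the coloured genes are all below 0, and Snapc1, Polrmt and Ccnt1 are the coloured genes above 0.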

How the data were processed

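Poly(A) RNA of NIH/3T3 cells, 3 replicates per group, was sequenced by the authors, who aligned the reads to mm10 with bowtie2 (version 2.2.7, which does not split reads across introns), drew equal numbers of reads from each library, counted these by gene with GenomicAlignments and deposited CPM of an effective library size. The annotation release, the use of strand and the treatment of multi-mapping reads are not given in the sources used here. The methods state a minimum of 12 reads per gene, but 1834 of the 18001 genes had fewer. A second deposited table of the authors' own comparison (fold changes and p-values) was not used. The spike-in RNA was added to the lysis buffer for replicate 1 and after extraction for replicates 2 and 3, and was not used here.

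Reads were recovered from the steps of the deposited CPM values (100% whole within 0.01 reads). The groups were fitted on log2(CPM + 1) in limma 3.58.1 (R 4.3.3) without a block, with variances moderated along a mean-variance trend. Tests were two-sided, and p-values were adjusted by the Benjamini-Hochberg method over the whole table. The paper calls the replicates biological. The p-values rest on the spread between these libraries, moderated towards that of genes of like level. They therefore do not measure the spread of each gene alone. Alternatives were edgeR 4.0.16 and DESeq2 1.42.0 on these recovered reads, other pseudocounts, filters and scalings, no trend, the replicate block and libraries left out. On simulated data with 200 of 18001 genes changed 2-fold, limma recovered 86%, edgeR 90.5% and DESeq2 83.5%. All members changed by less than 2-fold (log2 fold changes of -0.66 to 0.41). The simulation therefore does not tell how many changes of that size would be found. Counting error is all that read numbers account for, since the reads carry no molecular identifiers.

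The members, gene lists and markers were chosen with earlier results of these data known. All members are named except 1, which is counted but not reported here. Values in every library are given for members with an adjusted p under 0.05, for the 4 subunits that were candidates of the study's screen (Polr2c, Polr2e, Polr2h and Polr2l) and for the paralog pairs, and of each other list up to 3 genes were named in each direction. Polr2a, Polr1a and Rrn3 were given values after these were seen, as was Znrd1. Values in every library are also given for Snapc1, Uri1 and Polrmt, which the rule for the other lists did not call for. Coordinates are from GENCODE on GRCm38, near-identical transcripts from blastn (version 2.17.0), and upstream sequences from RefSeq. Members with no entry included Polr3a, Polr2k, Polr2g, Maf1, Polr3d, Brf1, Polr2d and Brf2.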

Additional observations from a re-analysis of the deposited data

How the results depend on the processing

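The counts of members that fell (10) and rose (2), and the count of all genes past the threshold (3676), stayed within 1.5 times under another pseudocount, a filter on low CPM, TMM, median-of-ratios and quantile scaling, and edgeR (3786 genes). Without a mean-variance trend limma called 1440 genes, 1 member lower and 0 higher, and DESeq2 called 2183 genes, 6 members lower and 1 higher (10 and 2 at an unadjusted p under 0.05). With single libraries or replicate numbers left out, 1014 to 2813 genes, 0 to 7 lower members and 0 to 3 higher members were called. The log2 fold change of Aldoa stayed between -3.00 and -2.90. With fewer libraries there are fewer degrees of freedom, and otherwise the cause was not tested. Medians near 0 changed sign with single libraries left out, from -0.036 to 0.025 for all members, -0.075 to 0.031 for the Pol II subunits, -0.049 to 0.017 for the Pol III subunits and -0.035 to 0.024 for the Pol I factors.

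The replicate block gave 7 lower and 2 higher members and 3170 genes. Polr1d, Polr2d and Polr2f did not pass the threshold under it (adjusted p = 0.052, 0.061 and 0.066). Same-numbered libraries deviated together with correlations of 0.034, 0.021 and 0.16 across 9387 genes, not all above 0.1. Both siAldoa replicates 1 and 2 had a higher correlation with a library of another number (0.094 and 0.045), so the numbers were not taken as pairs. The replicate 3 libraries had the highest value, 0.16, and correlations of -0.11 to -0.059 with the other numbers. Whether these replicate 3 libraries share a batch was not tested. Members with few reads, such as Polr2k, Polr2i, Polr3gl and Gtf3c5, could show only large changes at this depth.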
